A study of Mus musculus with 9 samples.

Results

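The genes described here are the interferon-inducible GTPases of the mouse lung and 1 chemokine of the same response: the guanylate binding protein (GBP) genes *Gbp2*, *Gbp3*, *Gbp4*, *Gbp5* and *Gbp7*, the immunity-related GTPase (IRG) genes *Iigp1*, *Irgm1*, *Irgm2* and *Igtp*, and *Cxcl9*. They were picked by gene symbol among 41345 probesets, 23521 of which carry 1 symbol. Of the 10 genes, 9 had a probeset of their own, 1 each. *Gbp2* had none, and its only probeset is shared with its neighbor *Gbp2b*. *Gbp4* and *Iigp1* were among the genes that the study selected on these same arrays because both hyperresponsive strains differed from C57BL/6J and not from each other. Their differences between strains are therefore given as values with no p-value. Counts of tests leave them out, except where the dependence on the processing is described over all 9 genes.

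Whole lung of 9 mice was measured, 1 array per mouse and 3 mice per strain. CSS12 mice carry Chromosome 12 of the A/J strain on a C57BL/6J background (C57BL/6J-Chr12A/J/NaJ), BcA86 is a recombinant congenic strain whose genome is mostly C57BL/6J with segments of A/J, and C57BL/6J is the background strain of both. CSS12 and BcA86 are hyperresponsive to methacholine and C57BL/6J is hyporesponsive, and the study sought genes whose expression separates them. The mice were 8 to 12 weeks old, naïve and untreated, so no interferon, allergen or infection was given to any of them. Each strain is inbred, so all 3 mice of a strain share 1 genotype, and in CSS12 the genotype differs from C57BL/6J along a whole chromosome. None of the 10 genes lies on Chromosome 12. Whether *Iigp1*, or any of the other genes, lies in an A/J segment of BcA86 was not analysed here.

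Interferon gamma, made mainly by T and NK cells, binds its receptor and acts through JAK kinases to switch on a wide set of genes in macrophages, epithelial and endothelial cells. GBPs and IRGs are among the proteins it induces most. They are GTPases that assemble on the vacuoles of intracellular parasites and bacteria and help to break them open, and both families also respond to type I interferon. Promoters that respond to interferons often hold a palindromic element called GAS or the interferon stimulated response element, ISRE, which IRF proteins bind. In whole tissue, fewer cells of a type and less RNA per cell cannot be told apart.

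The promoters of these genes carry the letters of those elements, and the stretches around them are shown because they are what most of the genes have in common. RefSeq promoters on GRCm38.p6, from 250 bases before to 50 bases after the annotated start, were at hand for 8 of the 10 genes (not *Gbp4* or *Iigp1*). The core of the ISRE, searched on both strands as GAAANNGAAA, was present in at least 1 promoter of 7 of the 8, against 3.99% of 27025 mouse genes with promoters of the same length. *Cxcl9* was the 1 without it. In the lines that follow, each stretch is written 5′ to 3′ on the strand of its gene, and capitals mark the ISRE core, which reads as TTTC repeats where it lies on the opposite strand.
Gbp5 (chr3:142496757-142496790, plus strand): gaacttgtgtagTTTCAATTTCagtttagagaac
Gbp7 (chr3:142530271-142530304, plus strand): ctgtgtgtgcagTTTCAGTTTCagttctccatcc
Gbp3 (chr3:142559987-142560026, plus strand): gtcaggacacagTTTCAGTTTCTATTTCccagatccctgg
Gbp2 (chr3:142620592-142620625, plus strand): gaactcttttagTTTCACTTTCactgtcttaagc
Irgm1 (chr11:48871423-48871462, minus strand): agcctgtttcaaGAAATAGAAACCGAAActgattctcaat
Igtp (chr11:58199510-58199543, plus strand): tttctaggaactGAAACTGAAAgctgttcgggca
Irgm2 (chr11:58214901-58214934, plus strand): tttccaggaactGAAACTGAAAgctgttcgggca

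The core lay on the opposite strand in all 4 GBP promoters and on the strand of the gene in all 3 IRG promoters. *Gbp3* and *Irgm1* each held 2 overlapping cores. Between the core and the start of the gene there were 155 bases in *Gbp5*, 43 in *Gbp7*, 29 in *Gbp3*, 49 in *Gbp2*, 14 in *Irgm1*, 24 in *Igtp* and 54 in *Irgm2*, taking the nearer core where there were 2. *Gbp3* has a second RefSeq promoter, and that one held no core. GAS, searched as TTCNNNGAA, was present for 4 of the 8 genes, *Gbp5*, *Gbp7*, *Igtp* and *Irgm2*, against 9.55% of all genes. A match shows only that the letters are there.

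**Figure D1:**
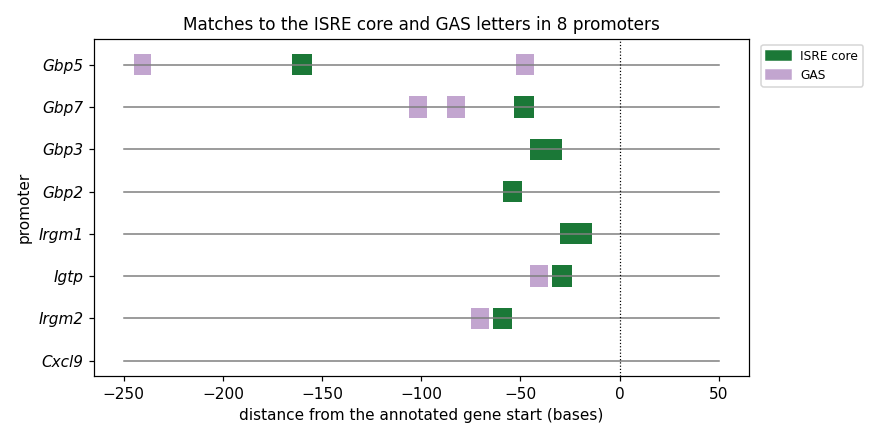
Position of the ISRE core (green) and GAS (purple) letters in 8 promoters, by distance in bases from the annotated gene start (0, dotted). Each of the 7 GTPase promoters has an ISRE core between its upstream end and the start, 155 bases away in *Gbp5* and 14 to 54 bases away in the other 6, and *Cxcl9* has neither motif.

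*Igtp* and *Irgm2* are neighbors on Chromosome 11 and had the most similar pair of promoters, with 244 of 265 aligned bases identical (92.1%). Both are printed in full, with the GAS and ISRE letters in capitals, because the stretch that holds both elements is almost letter for letter the same.
Igtp (chr11:58199306-58199605, plus strand): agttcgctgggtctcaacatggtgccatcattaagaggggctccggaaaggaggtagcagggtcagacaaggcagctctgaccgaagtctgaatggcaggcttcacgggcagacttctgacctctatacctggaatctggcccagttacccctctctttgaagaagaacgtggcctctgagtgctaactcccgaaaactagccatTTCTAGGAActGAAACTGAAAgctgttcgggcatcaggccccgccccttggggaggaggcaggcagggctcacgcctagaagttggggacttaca
Irgm2 (chr11:58214727-58215026, plus strand): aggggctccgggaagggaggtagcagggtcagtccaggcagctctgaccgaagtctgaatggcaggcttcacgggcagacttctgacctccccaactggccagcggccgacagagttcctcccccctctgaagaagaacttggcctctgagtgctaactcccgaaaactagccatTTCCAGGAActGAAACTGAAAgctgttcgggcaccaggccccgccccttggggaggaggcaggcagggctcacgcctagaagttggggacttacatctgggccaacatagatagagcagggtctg

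The values are log2 expression values after robust multiarray average (RMA) normalization, so a difference of 1 is a doubling. Array medians lay between 6.08 and 6.13. The means of the lung epithelial markers, 12.07 to 12.23, and of the endothelial markers, 11.07 to 11.32, lay above the median of all probesets in every array. CSS12 replicate 2 stood apart from the other arrays for several genes given here, and for the 9 genes the differences from C57BL/6J that it moved by over 1.5 times are given with and without it. A test of 3 mice against 3 has limited precision, and each p-value is from limma with Benjamini-Hochberg adjustment over all 41345 probesets unless Cyber-T, the regularised test named in the methods of the study, is named.

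The 9 genes had higher strain means in CSS12 than in C57BL/6J without exception, and higher means in BcA86 than in C57BL/6J in 8 of 9. Without *Gbp4* and *Iigp1* these counts were 7 of 7 and 6 of 7. The 8 GTPases all stood in the order CSS12, BcA86, C57BL/6J, an order that 17.5% of all probesets had. Because *Gbp4* and *Iigp1* were selected for differing from C57BL/6J in both strains, their order is no separate result. Of the other 7 genes, 6 had it. *Cxcl9* had the order CSS12, C57BL/6J, BcA86. Most neighbors in that order overlapped: the mice of CSS12 lay wholly above those of BcA86 for *Irgm2* and *Igtp* only (9.85% of all probesets), and the mice of BcA86 wholly above those of C57BL/6J for *Iigp1* only (6.77% of all probesets). The differences were small, with a median log2 fold change of 0.501 in CSS12 against C57BL/6J and 0.19 in BcA86 against C57BL/6J, where the medians of all probesets were 0.0019 and -0.0049. Without *Gbp4* and *Iigp1*, which were selected on these differences, the medians of the other 7 genes were 0.412 in CSS12 and 0.059 in BcA86.

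**Figure D2:**
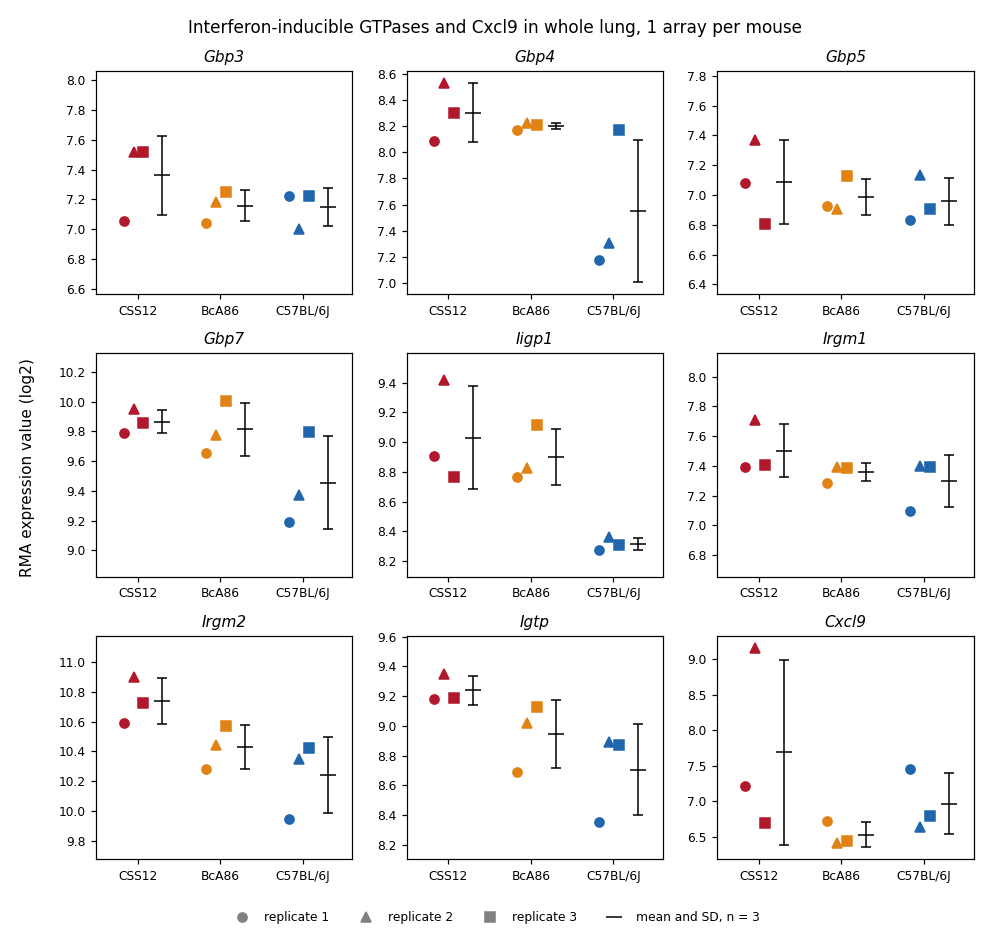
RMA expression value (log2) of the 9 measured genes in each mouse of CSS12, BcA86 and C57BL/6J, with the strain mean and SD beside the points (n = 3). *Iigp1* is at 8.76 or above in the CSS12 and BcA86 mice and between 8.28 and 8.36 in the C57BL/6J mice, and *Cxcl9* stands at 9.16 in CSS12 replicate 2 alone.

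Among the IRGs, *Iigp1* encodes Irga6, an effector that coats the vacuole of *Toxoplasma* in mouse cells. *Iigp1* had 8.91, 9.42 and 8.76 in CSS12 mice, 8.76, 8.82 and 9.11 in BcA86 mice, and 8.28, 8.36 and 8.31 in C57BL/6J mice. Both hyperresponsive strains lay above C57BL/6J in every mouse, and the mice differed least within C57BL/6J (SD 0.345 in CSS12, 0.188 in BcA86 and 0.043 in C57BL/6J). The log2 fold change was 0.71 (SE 0.17) in CSS12 and 0.59 (SE 0.17) in BcA86, which for CSS12 is 1.64-fold. CSS12 and BcA86 overlapped (0.13, SE 0.17). Without CSS12 replicate 2, the log2 fold change in CSS12 was 0.52 against C57BL/6J and -0.07 against BcA86.

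*Irgm1*, *Irgm2* and *Igtp* (Irgm3) encode the regulatory IRGs, which sit on the membranes of the host cell and hold the effectors inactive there. *Irgm2* had 10.59, 10.90 and 10.73 in CSS12 mice, 10.28, 10.44 and 10.57 in BcA86 mice, and 9.95, 10.35 and 10.42 in C57BL/6J mice. *Igtp* had 9.18, 9.35 and 9.19 in CSS12 mice, 8.69, 9.02 and 9.13 in BcA86 mice, and 8.35, 8.89 and 8.87 in C57BL/6J mice. For both genes all 3 CSS12 mice lay above all 6 others, while BcA86 overlapped C57BL/6J.

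In CSS12 against C57BL/6J, *Irgm2* had a log2 fold change of 0.50 (SE 0.14, limma adjusted p = 0.294) and *Igtp* one of 0.53 (SE 0.17, limma adjusted p = 0.327), neither of which passed. With Cyber-T both passed (adjusted p = 0.00817 for *Irgm2* and 0.00723 for *Igtp*). In CSS12 against BcA86 the values were 0.31 (SE 0.14) for *Irgm2* and 0.29 (SE 0.17) for *Igtp*, with limma adjusted p-values of 0.451 and 0.561, and *Irgm2* alone of the pair passed with Cyber-T (adjusted p = 0.0138, and 0.0506 for *Igtp*). In BcA86 against C57BL/6J the values were 0.19 (SE 0.14) and 0.24 (SE 0.17). That small difference leaned on 1 mouse, C57BL/6J replicate 1, the lowest for both genes: without it the values in BcA86 were 0.04 for *Irgm2* and 0.07 for *Igtp*, while those in CSS12 were 0.35 and 0.36.

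*Irgm1*, the third of these regulators, is needed by mice to control mycobacteria. It had 7.40, 7.71 and 7.40 in CSS12 mice, 7.29, 7.40 and 7.39 in BcA86 mice, and 7.10, 7.40 and 7.40 in C57BL/6J mice. The 3 strains overlapped, with a log2 fold change of 0.21 (SE 0.11, limma adjusted p = 0.578) in CSS12 and 0.06 (SE 0.11, limma adjusted p = 0.899) in BcA86 against C57BL/6J. The value in CSS12 was 0.10 when CSS12 replicate 2 was left out and 0.11 when C57BL/6J replicate 1 was. *Irgm1* lies on Chromosome 11 apart from *Igtp* and *Irgm2*.

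Among the GBPs, *Gbp4* split the C57BL/6J mice. *Gbp4* had 8.08, 8.53 and 8.30 in CSS12 mice, 8.17, 8.22 and 8.21 in BcA86 mice, and 7.17, 7.31 and 8.17 in C57BL/6J mice. C57BL/6J replicate 3 lay within the range of the hyperresponsive strains, and the other C57BL/6J mice lay far below it. The log2 fold change was 0.75 (SE 0.24) in CSS12 and 0.65 (SE 0.24) in BcA86, and it was 1.06 and 0.96 without C57BL/6J replicate 3 and 0.56 and 0.46 without C57BL/6J replicate 1. Between CSS12 and BcA86 it was 0.10 (SE 0.24), and -0.01 without CSS12 replicate 2.

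*Gbp7*, which in mouse macrophages helps to assemble the NADPH oxidase, had 9.79, 9.95 and 9.86 in CSS12 mice, 9.66, 9.78 and 10.01 in BcA86 mice, and 9.19, 9.37 and 9.80 in C57BL/6J mice. As for *Gbp4*, C57BL/6J replicate 3 was the one that reached the other strains. The log2 fold change was 0.41 (SE 0.16, limma adjusted p = 0.406) in CSS12 and 0.36 (SE 0.16, limma adjusted p = 0.478) in BcA86. Without C57BL/6J replicate 3 it was 0.59 and 0.53 (limma adjusted p = 0.196 and 0.229), and without C57BL/6J replicate 1 it was 0.28 and 0.23 (limma adjusted p = 0.647 and 0.655).

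*Gbp3* and *Gbp5* differed little between strains. *Gbp3* had 7.06, 7.52 and 7.52 in CSS12 mice, 7.04, 7.18 and 7.25 in BcA86 mice, and 7.22, 7.0 and 7.22 in C57BL/6J mice. *Gbp5*, which promotes assembly of the NLRP3 inflammasome in mouse macrophages, had 7.08, 7.37 and 6.81 in CSS12 mice, 6.93, 6.90 and 7.13 in BcA86 mice, and 6.83, 7.14 and 6.91 in C57BL/6J mice. All pairs of strains overlapped for both, with log2 fold changes against C57BL/6J of 0.22 (SE 0.14) for *Gbp3* and 0.13 (SE 0.15) for *Gbp5* in CSS12, and of 0.01 (SE 0.14) and 0.03 (SE 0.15) in BcA86. Without CSS12 replicate 2 the values in CSS12 were 0.14 for *Gbp3* and -0.01 for *Gbp5*. *Gbp3*, *Gbp5* and *Gbp7* lie next to each other on Chromosome 3, with *Gbp7* between the other two. The larger values of *Gbp7* than of its neighbors were not tested as a difference. The probeset shared by *Gbp2* and *Gbp2b* had 10.03, 10.20 and 9.93 in CSS12 mice, 9.81, 9.88 and 9.89 in BcA86 mice, and 9.62, 9.79 and 9.98 in C57BL/6J mice. It too stood in the order CSS12, BcA86, C57BL/6J (17.5% of all probesets), with all CSS12 mice above all BcA86 mice (9.85%). Its log2 fold changes against C57BL/6J were 0.26 (SE 0.10, limma adjusted p = 0.437) in CSS12 and 0.07 (SE 0.10, limma adjusted p = 0.866) in BcA86.

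*Cxcl9* encodes a chemokine that draws T and NK cells through the receptor Cxcr3. It had 7.22, 9.16 and 6.69 in CSS12 mice, 6.73, 6.41 and 6.43 in BcA86 mice, and 7.46, 6.64 and 6.79 in C57BL/6J mice. CSS12 replicate 2 stood far above the next highest mouse, C57BL/6J replicate 1, and the other CSS12 mice lay within the range of C57BL/6J. The log2 fold change in CSS12 was 0.72 (SE 0.56, limma adjusted p = 0.695) against C57BL/6J and 1.16 (SE 0.56, limma adjusted p = 0.478) against BcA86, and that in BcA86 against C57BL/6J was -0.44 (SE 0.56, limma adjusted p = 0.828). Cyber-T passed the difference between CSS12 and BcA86 (adjusted p = 0.049). Without CSS12 replicate 2, *Cxcl9* in CSS12 was level with C57BL/6J (-0.01) and 0.43 above BcA86 (limma adjusted p = 0.651).

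**Figure D3:**
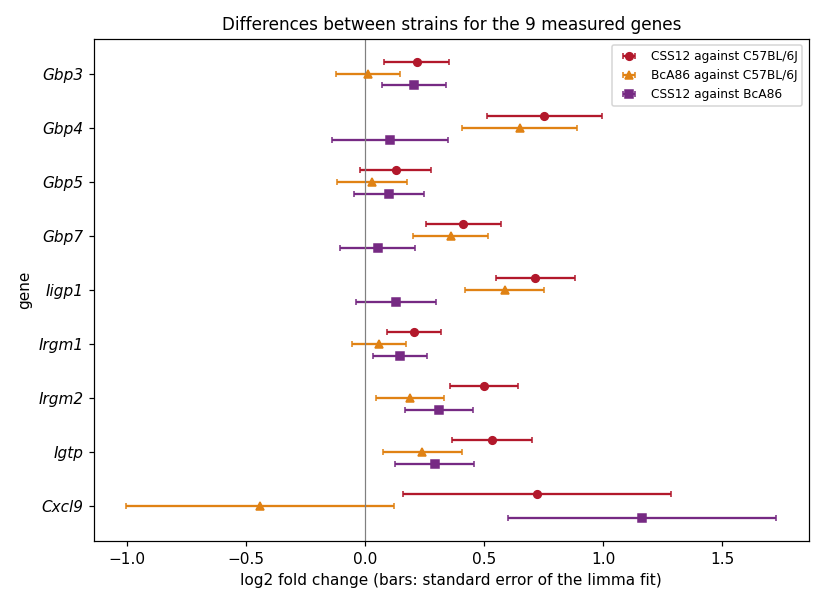
Log2 fold change of the 9 measured genes for CSS12 against C57BL/6J, BcA86 against C57BL/6J and CSS12 against BcA86, with the standard error of the limma fit. Values against C57BL/6J are above 0 for all 8 GTPases, from 0.13 to 0.75 in CSS12 and from 0.01 to 0.65 in BcA86, and *Cxcl9* has the widest errors (SE 0.56).

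Over the 7 genes other than *Gbp4* and *Iigp1*, limma called 0 in each of the comparisons, where it called 0.22% of all probesets in CSS12 against C57BL/6J, 0.375% in BcA86 against C57BL/6J, 0.302% in both hyperresponsive strains together against C57BL/6J and 0.716% in CSS12 against BcA86. At an unadjusted p under 0.05, 3 of the 7 were higher in CSS12 than in C57BL/6J, where 5.5% of all probesets were, 0 were higher in BcA86 (5.2%), 3 in both strains together (4.86%) and 0 in CSS12 against BcA86 (5.96%). Cyber-T called 2 as higher in CSS12 (1.4% of all probesets), 0 in BcA86 (1.32%), 0 in both together (0.556%) and 2 in CSS12 against BcA86 (2.24%). Over all 9 genes, all mice of a strain lay above all mice of C57BL/6J for 3 genes in CSS12 (*Iigp1*, *Irgm2* and *Igtp*), as for 7.56% of all probesets, and for *Iigp1* alone in BcA86, as for 6.77%. *Iigp1* was also the 1 gene whose 6 hyperresponsive mice all lay above all C57BL/6J mice, as for 2.35% of probesets. For 2 genes all CSS12 mice lay above all BcA86 mice, as for 9.85% of probesets. Because the genes were chosen with results of these arrays known, these counts describe them and test nothing.

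Within a strain, many of the genes ranked the mice alike. CSS12 replicate 2 was the highest CSS12 mouse for 8 of the 9 genes (28.2% of all probesets), *Gbp3* being the exception, where it was level with replicate 3. C57BL/6J replicate 1 was the lowest of its strain for 7 of 9 (30.6%), as was BcA86 replicate 1 (32.7%). CSS12 replicate 1 was the lowest of its strain for 6 of 9, with the share of all probesets not given here. The average deviation of the 9 genes from their own means was 0.08, 0.59 and 0.07 in the 3 CSS12 mice, -0.12, -0.05 and 0.07 in the BcA86 mice and -0.34, -0.24 and -0.08 in the C57BL/6J mice. BcA86 replicate 3 and CSS12 replicates 1 and 3 thus had almost the same average, and C57BL/6J replicate 3 lay within the range of BcA86.

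CSS12 replicate 2 was high for other genes of interferon and macrophages too. *Cxcl10*, a second Cxcr3 ligand, was 8.29 there and 6.68 to 7.44 in the other 8 mice, *Ciita*, the activator of MHC class II genes, was 8.59 against 7.78 to 8.13, and *Nlrc5*, which does the same for MHC class I, was 7.53 against 6.78 to 7.05. *Itgax* (CD11c), carried by alveolar macrophages and dendritic cells, was 10.22 against 8.63 to 9.10. *Chil3*, a chitinase-like protein abundant in alveolar macrophages, was 12.48 against 10.25 to 10.85. *Mrc1*, another macrophage marker, was 10.14 against 9.27 to 9.74. The alveolar macrophage markers *Marco* and *Siglecf* were not high. *Marco*, a scavenger receptor, was 6.29 against 6.52 to 6.81, and *Siglecf* was 7.86, within the 7.64 to 8.26 of the other mice. Of 14 macrophage and monocyte markers, CSS12 replicate 2 was the highest of the 9 mice for 7 and the lowest for 1. The mean of the 14 was 9.76 in that mouse, above 9.30 and 9.33 in the other CSS12 mice, 9.26 to 9.37 in BcA86 mice and 9.33 to 9.44 in C57BL/6J mice. The mean of 16 T and NK cell markers was 7.247 in it. The other CSS12 mice had 7.116 and 6.785, BcA86 mice 7.133 to 7.24 and C57BL/6J mice 7.01 to 7.342. It was the highest CSS12 mouse for 12 of the 16 (28.2% of all probesets) and the highest of the 9 mice for 2. *Ciita*, *Nlrc5*, *Itgax*, *Marco* and *Siglecf* were named here after their values were seen, and the part of these cells in the *Cxcl9* and GTPase values was not tested. Without CSS12 replicate 2 the median log2 fold change of the 9 genes was 0.371 in CSS12 against C57BL/6J and 0.042 in CSS12 against BcA86, which had been 0.146.

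**Figure D4:**
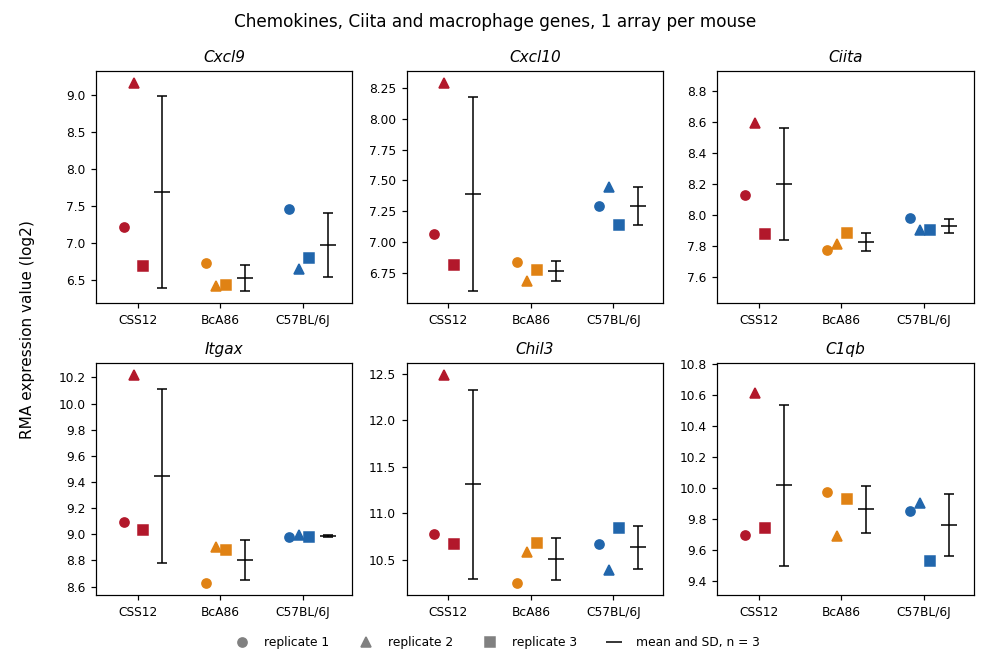
RMA expression value (log2) of *Cxcl9*, *Cxcl10*, *Ciita*, *Itgax*, *Chil3* and *C1qb* in each mouse of CSS12, BcA86 and C57BL/6J, with the strain mean and SD (n = 3). CSS12 replicate 2 is the highest mouse in all 6 panels, at 9.16 for *Cxcl9*, 10.22 for *Itgax* and 12.48 for *Chil3*.

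The other GTPases of both families also had list medians above 0 against C57BL/6J. Of 6 other GBP genes limma called 0 in each comparison, and 6 had values above 0 in CSS12 and 5 in BcA86 against C57BL/6J (medians 0.307 and 0.228). *Gbp6*, in the cluster of *Gbp4* on Chromosome 5, had 4.05, 3.90 and 3.80 in CSS12 mice, 3.78, 3.88 and 3.90 in BcA86 mice, and 3.64, 3.44 and 3.51 in C57BL/6J mice. All hyperresponsive mice lay above all C57BL/6J mice, as for 2.35% of all probesets. The difference was 0.36 (SE 0.07, limma adjusted p = 0.135), at a level below the median of all probesets. *Gbp11* had 0.42 (SE 0.22), *Gbp10* 0.28 (SE 0.20) and *Gbp9* 0.26 (SE 0.12) in both strains together against C57BL/6J.

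Of 7 other IRG genes limma also called 0 in each comparison, with medians of 0.277 in CSS12 and 0.273 in BcA86. *Gm12250* encodes Irgb10, an effector IRG that attacks bacterial membranes in mouse cells, and it is the direct neighbor of *Igtp* on Chromosome 11. It had 7.68, 7.78 and 7.51 in CSS12 mice, 6.74, 6.80 and 7.10 in BcA86 mice, and 6.21, 6.89 and 6.24 in C57BL/6J mice. CSS12 lay above both other strains in every mouse, by 1.21 (SE 0.19, limma adjusted p = 0.0649) over C57BL/6J and 0.78 (SE 0.19, limma adjusted p = 0.117) over BcA86, 2.31-fold and 1.72-fold. Of all probesets, 7.56% had all CSS12 mice above all C57BL/6J mice. Without C57BL/6J replicate 2 the difference from C57BL/6J was 1.43 (limma adjusted p = 0.0225), without any other single array it was 1.09 to 1.28 (limma adjusted p = 0.112 to 0.195), and with Cyber-T over all mice it passed (adjusted p = 7.2e-05). Of 11 IRG genes with a probeset of their own, CSS12 lay wholly above BcA86 in 3, the consecutive genes *Gm12250*, *Igtp* and *Irgm2*, where 9.85% of all probesets did. CSS12 also lay wholly above BcA86 in 1 of the probesets shared by *Tgtp1* and *Tgtp2*. *9930111J21Rik2*, also on Chromosome 11, had means of 9.64 in CSS12, 9.67 in BcA86 and 9.36 in C57BL/6J. All its hyperresponsive mice lay above all C57BL/6J mice (0.29, SE 0.08, limma adjusted p = 0.289), as for 2.35% of all probesets. Both GTPase families hold close paralogs, and how far their probes read each other's transcripts was not analysed here. *Gm4951* (Ifgga2) and *F830016B08Rik* (Ifgga4), which lie near *Iigp1* on Chromosome 18, had 0.90 (SE 0.24) and 0.53 (SE 0.16) in CSS12 and 0.51 (SE 0.24) and 0.27 (SE 0.16) in BcA86 against C57BL/6J, with limma adjusted p-values from 0.257 to 0.598.

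**Figure D5:**
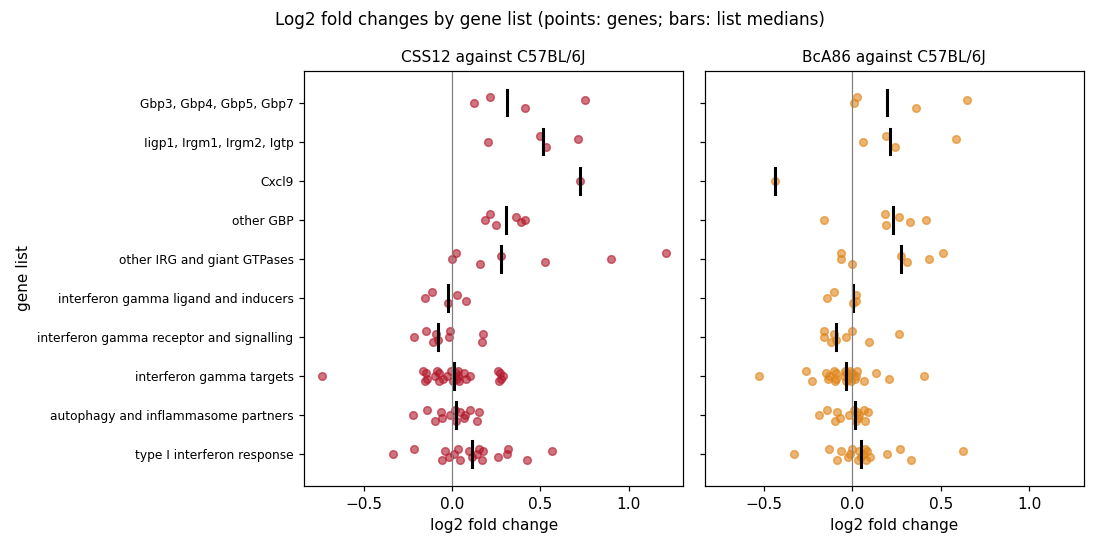
Log2 fold change of single genes (points) and list medians (bars) for CSS12 and BcA86 against C57BL/6J, by gene list. The GTPase lists have medians of 0.277 to 0.517 in CSS12 and 0.194 to 0.273 in BcA86, while the ligand, receptor and target lists of interferon gamma lie between -0.094 and 0.014. The GTPase lists include *Gbp4* and *Iigp1*, which were selected on these differences. Without them the other 7 of the 9 measured genes, *Cxcl9* among them, have medians of 0.412 in CSS12 and 0.059 in BcA86.

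In the rest of the interferon gamma pathway the list medians lay near 0. *Ifng* itself lay between 5.40 and 5.71 in all mice, below the median of all probesets (6.1), with a log2 fold change of 0.03 (SE 0.07, limma adjusted p = 0.923) in CSS12 and -0.10 (SE 0.07, limma adjusted p = 0.677) in BcA86 against C57BL/6J. Of the 5 genes of the ligand and its inducers limma called 0 in any comparison, with a median of -0.037 in both strains together. Of 9 receptor and signalling genes it also called 0 (median -0.091): the receptor chain *Ifngr1* had 0.22 (SE 0.07, limma adjusted p = 0.352), and the transcription factors *Irf8* and *Irf1* had -0.19 (SE 0.12) and -0.13 (SE 0.08). Of 26 other targets limma called 0, with 13 values above and 13 below 0 in both strains together (median -0.022). Among these *Nos2*, the inducible nitric oxide synthase, had 0.34 (SE 0.06, limma adjusted p = 0.0672), *Tap1*, a peptide transporter for MHC class I, 0.24 (SE 0.09), *Cxcl10* -0.21 (SE 0.29) and *Plac8* -0.50 (SE 0.13, limma adjusted p = 0.25).

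Of 19 genes of the type I interferon response, limma called 1 as higher in both strains together, where it called 0.16% of all probesets as higher. It was *Cmpk2*, a mitochondrial nucleotide kinase, with 9.14, 9.23 and 9.22 in CSS12 mice, 9.18, 9.24 and 9.24 in BcA86 mice, and 8.92, 8.88 and 8.87 in C57BL/6J mice (0.32, SE 0.05, limma adjusted p = 0.0456). The call ended whichever of the 9 arrays was left out, with adjusted p-values of 0.078 to 0.155. *Rsad2* (viperin), its neighbor in function and place, had 0.52 (SE 0.09, limma adjusted p = 0.0674). The means of *Rsad2* were 8.21 in CSS12, 8.41 in BcA86 and 7.79 in C57BL/6J. Both genes lie on Chromosome 12, which is of A/J origin along its whole length in CSS12 and over part of it in BcA86. The study gives that part as reaching to the end of the chromosome but not back to its start. The positions of these genes were not compared with its bounds here, so whether BcA86 carries A/J alleles of them was not tested. *Rsad2* was named after its values were seen. The median of the 19 genes was 0.077.

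Markers of T and NK cells, the cells that make interferon gamma, gave 0 calls of 16 in each comparison. In CSS12, 15 of 16 values were below 0 against BcA86 (median -0.123) and 11 of 16 against C57BL/6J (median -0.049). CSS12 replicate 3 was the lowest CSS12 mouse for 15 of the 16 and the lowest of the 9 mice for 10. Shares of all probesets are not given here. Its mean of the 16 markers was 6.785, against 7.116 and 7.247 in the other CSS12 mice, and the counts were not redone without it. In BcA86 against C57BL/6J, 6 of 16 were below 0 (median 0.061). The median was -0.009 in both strains together against C57BL/6J, the comparison of the values that follow unless another is named. *Ncr1*, the NK cell receptor NKp46, had 8.28, 8.32 and 7.90 in CSS12 mice, 8.63, 8.29 and 8.29 in BcA86 mice, and 7.87, 7.75 and 7.77 in C57BL/6J mice. It lay higher in every hyperresponsive mouse (0.49, SE 0.12, limma adjusted p = 0.209), as for 2.35% of all probesets. *Cd3d* lay lower in every hyperresponsive mouse (-0.24, SE 0.125), with the share of all probesets not given here. *Klrb1c*, *Klrd1* and *Klrk1* of the same list had 0.005, 0.08 and 0.11 (SE 0.25, 0.15 and 0.14). *Cd3d* and these *Klr* genes were named after their values were seen. *Cd8a*, *Cd8b1* and *Cd4* had -0.37, -0.37 and -0.30 (SE 0.19, 0.22 and 0.19). The macrophage list gave 0 calls of 14 (median -0.022), and *Adgre1* (F4/80) had 0.48 (SE 0.10, limma adjusted p = 0.0859) in CSS12 against BcA86. Of 8 endothelial and 8 lung epithelial markers limma called 0 in each comparison (medians 0.091 and 0.001), with *Cdh5* at 0.22 (SE 0.05, limma adjusted p = 0.219) and *Aqp5* at -0.22 (SE 0.06, limma adjusted p = 0.292). Values were above 0 for all 8 endothelial and 4 of 8 epithelial markers. All hyperresponsive mice lay above all C57BL/6J mice for 2 endothelial markers, *Cdh5* and *Pecam1* (2.35% of all probesets). They lay below for 1 epithelial marker, *Aqp5*, with that share not given here. C57BL/6J replicate 1 was the lowest of its strain for 6 of the 8 endothelial markers (30.6% of all probesets). The part of these cells in the GTPase values was not tested.

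The genes whose profile over the 9 arrays was most like the average of the 9 genes, of 23512 compared, were *Nup210l* (Pearson r = 0.978, Spearman rho = 0.957), *Nuf2* (0.977 and 0.949), *Kif20a* (0.968 and 0.75), *Top2a* (0.965 and 0.833) and *Lypla1* (0.961 and 0.896). *Lypla1*, with a mean of 2.76, and *Nup210l*, with 5.79, lay below the median of all probesets (6.1). *Nup210l* varied little, from 5.65 to 6.03. *Nuf2*, a kinetochore protein, *Kif20a*, a kinesin of cell division, and *Top2a*, the topoisomerase of dividing cells, are cell cycle genes. *Top2a* was 7.92 in CSS12 replicate 2 and 6.05 to 6.91 in the other mice, with 6.05, 6.35 and 6.48 in C57BL/6J. The likeness rested in part on the ends of the range: over the 7 arrays without CSS12 replicate 2 and C57BL/6J replicate 1, r was 0.852, 0.868, 0.779, 0.757 and 0.809 in the order given. These are descriptions of the best matches among many genes, over arrays that share strain and mouse.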

How the data were processed

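RNA of whole lung from 9 mice was measured on Affymetrix Gene 2.0 ST arrays, 1 per mouse. The deposited values are log2 expression values that the authors normalized by RMA in FlexArray (version and genome build of the probes not given in the sources used here), 1 per probeset and array, from 1.29 to 13.68. RMA shares information across arrays and compresses low values. No further normalization or filter was applied. Symbols came from the annotation of the platform: 23521 probesets carry 1, 1820 several and 16004 none, and only single symbols were named. Strains came from the sample labels.

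Differences between strains were tested with limma 3.58.1 (R 4.3.3), using 1 model for the 9 arrays without a block. P-values were corrected by Benjamini-Hochberg across the 41345 probesets, and those below 0.05 after correction were called. The test named in the methods, Cyber-T (window 101, prior weight 10), was an alternative, since limma shares 1 spread among the strains. The procedure was tested on simulated data. Replicate numbers were not used to pair the mice.

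The 10 genes and the lists were chosen with earlier results of these data known. Named are those genes and, of each list, the genes that limma called or, with none, up to 4 with the largest change in both hyperresponsive strains together; a gene picked later, with its values in view, is marked as such, apart from *Gbp2b*, *Tgtp1* and *Tgtp2*, named for their probesets. Likeness is the correlation with the average of the centred genes. Promoters are from RefSeq and were compared by pairwise alignment.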

Additional observations from a re-analysis of the deposited data

How the results depend on the processing

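The number of the 9 genes called, 0 in each comparison, stayed 0 with trended and robust variances, the compared strains alone, dimmer probesets left out, arrays centred, array weights, without *Gbp4* and *Iigp1* and with the probeset of *Gbp2* and *Gbp2b* added, the last chosen after seeing the data. With Cyber-T it was 4 in CSS12, 2 in BcA86 and 2 in both together against C57BL/6J, of which 2, 0 and 0 were left without *Gbp4* and *Iigp1*, and 2 in CSS12 against BcA86. With each array left out it lay between 0 and 1 in both together (the 1, without C57BL/6J replicate 3, was *Gbp4*, which was selected on that difference) and was 0 otherwise. The median log2 fold change in both together, 0.345, was 0.141 without *Gbp4* and *Iigp1* (0.412 in CSS12 and 0.059 in BcA86), because the genes with the largest values left the list, and 0.211 to 0.436 with 1 array left out. In CSS12 against C57BL/6J the median lay between 0.354 and 0.592 with 1 array left out, in BcA86 between 0.048 and 0.28, and in CSS12 against BcA86 between 0.042 and 0.241. No called value reversed. Taking all probesets of a gene was not run, since each gene had 1.

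Over all probesets, deviations of mice of the same replicate number were weakly correlated at most (-0.107 to 0.147, and 5 of 9 arrays correlated best with their own number). Of the 9 genes given here, replicate 1 was the lowest of its strain for 6 in CSS12, 7 in BcA86 and 7 in C57BL/6J. Whether the replicates of 1 number shared a batch was not tested. With the replicate number as a block, 0 of the 9 genes were called in each comparison. Precision is limited by having 3 mice in each strain.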

Other observations

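The probesets that *Tgtp1* and *Tgtp2* share, IRG genes on Chromosome 11, differed from each other. In 1 of them CSS12 mice had 6.76, 6.91 and 6.88, BcA86 mice 6.32, 6.51 and 6.57, and C57BL/6J mice 6.42, 6.82 and 6.66, so that CSS12 lay wholly above BcA86 (0.39, SE 0.11, limma adjusted p = 0.192) but not above C57BL/6J (0.22, SE 0.11, limma adjusted p = 0.544). In the other, CSS12 mice had 6.91, 7.36 and 6.98, BcA86 mice 7.22, 6.83 and 6.69, and C57BL/6J mice 6.11, 6.76 and 6.82, and CSS12 lay wholly above C57BL/6J (0.52, SE 0.22, limma adjusted p = 0.462) but not above BcA86. Of all probesets, CSS12 lay wholly above BcA86 in 9.85% and wholly above C57BL/6J in 7.56%. Which of the 2 genes each probeset reads was not analysed here.

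*Plac8*, a lysosomal protein of leukocytes counted among the interferon gamma targets, ran against the GTPases. It had 7.94, 8.20 and 7.62 in CSS12 mice, 8.41, 8.48 and 8.29 in BcA86 mice, and 8.79, 8.75 and 8.43 in C57BL/6J mice. CSS12 lay wholly below both other strains, by -0.74 (SE 0.15, limma adjusted p = 0.151) against C57BL/6J and -0.47 (SE 0.15, limma adjusted p = 0.256) against BcA86. The shares of all probesets that lay so are not given here. The lowest value was that of CSS12 replicate 3, which was also the lowest of the 9 mice for 10 of the 16 T and NK cell markers. Of 14 autophagy and inflammasome partners of the GTPases limma called 0 in each comparison, and *Casp1*, *Atg5*, *Pycard* and *Casp4* had log2 fold changes of -0.18 (SE 0.13), -0.13 (SE 0.06), -0.12 (SE 0.05) and 0.11 (SE 0.13) in both hyperresponsive strains together against C57BL/6J.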
